A study of Homo sapiens with 2 samples.

Results

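The hairpins hsa-mir-221 and hsa-mir-222, written mir-221 and mir-222 from here on, are a pair of neighbouring human miRNA precursors on the X chromosome, and they are described here by the small RNA that AGO3 and AGO2 held in HEK293 cells. They were chosen by name, as 2 of the 1038 precursors with a count in either library and as the 2 read stacks, of 502547 in the pooled stack list, whose sense annotation names them. HEK293 is an established human embryonic kidney line; the labels give the T-Rex strain for both groups. The AGO3 group is 1 library from cells that express FLAG-tagged AGO3, and the AGO2 group is 1 library from cells that express FLAG-tagged AGO2. In both, the tagged protein was captured on magnetic beads and its small RNA was sequenced. Each protein was thus measured in its tagged form. Per the labels, the 3′ adapter also differs between the libraries, so that protein and adapter cannot be told apart. With 1 library per protein no difference has a replicate check, and no test was made. Intervals are exact (Clopper-Pearson) 95% intervals unless another kind is named, and they cover counting error only.

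Argonaute proteins hold a miRNA and pair it with target RNA mainly through the seed, the bases after the first at its 5′ end. The miR-221 and miR-222 pair shares its seed and is known to repress the cell cycle inhibitors CDKN1B (p27) and CDKN1C (p57) and the receptor KIT. It is best known from blood vessel walls, from blood cell precursors and from tumours in which it is abundant.

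The mature sequences are shown for the seed they share and for where they part. RefSeq held 3 mature entries for the hairpins, given here 5′ to 3′ with the seed, bases 2 to 8, in capitals. Among them was no miR-221-5p, so that arm was not compared.
miR-221-3p: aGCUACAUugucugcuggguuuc
miR-222-3p: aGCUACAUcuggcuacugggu
miR-222-5p: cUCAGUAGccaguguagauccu

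The 3p miRNAs were identical over their first 8 bases, AGCUACAU, and then diverged; the longest run they shared after that was 6 bases, CUGGGU. Among 2545 mature human entries of the table, no other one had the seed GCUACAU, and no other one had the seed of miR-222-5p. Neither 3p miRNA occurred whole in any other of the 1562 hairpins. No copy of the pair elsewhere in the genome is thus listed there.

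The hairpins that give these miRNAs are shown for the place of the 3p arm, which is in capitals. RefSeq places MIR221 at chrX:45746157-45746266 and MIR222 at chrX:45747015-45747124, both on the minus strand of GRCh38.p14. Both lie within the coordinates of the long noncoding RNA gene MIR222HG (chrX:45745214-45770267).
mir-221: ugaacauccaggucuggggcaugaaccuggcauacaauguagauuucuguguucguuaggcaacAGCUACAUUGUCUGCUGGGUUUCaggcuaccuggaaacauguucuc
mir-222: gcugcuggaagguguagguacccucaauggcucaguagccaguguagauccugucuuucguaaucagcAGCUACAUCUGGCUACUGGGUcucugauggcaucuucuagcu

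Each hairpin has 110 bases, and 748 bases lie between them. Aligned end to end, the hairpins were identical at 63 of 116 positions (54.3%). How these identical positions are spread along the hairpins was not computed.

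Of 4667236 AGO3 reads, 3055417 (65.5%) fell on precursors, as did 3485257 (52.2%) of 6674064 AGO2 reads. As a check of the label, 6 precursors of HOX loci and of kidney summed to 5.7% of the AGO3 and 5.04% of the AGO2 counts. Most of that came from the HOX precursors mir-10a and mir-615, with 4.83% of AGO3 and 4.28% of AGO2 counts together, whereas the kidney precursors mir-192 and mir-194-2 held 0.228% of AGO3 and 0.181% of AGO2 counts. A list of 13 precursors best known from other cell types, among them blood cells, liver and muscle, summed to 0.0721% of the AGO3 and 0.0483% of the AGO2 counts. Most of that was mir-143, with 1740 AGO3 and 1317 AGO2 counts, and 3 of the 13, mir-155, mir-206 and mir-223, had no count in either library. That list is not complete: the endothelial mir-126, outside it, had 143256 AGO3 and 100671 AGO2 counts, and the erythroid mir-486 had 5745 AGO3 and 672 AGO2 counts. The labelled cell type is thus not settled by these lists. At these depths a count of 0 allows up to 0.982 counts per 1000000 precursor counts (CPM) in AGO3 and 0.861 CPM in AGO2.

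Both hairpins were held at a higher level by AGO3 than by AGO2, and mir-222 more so than mir-221. The precursor mir-222 had 21603 counts in AGO3 and 8958 counts in AGO2. As a share of all precursor counts this was 0.707% (0.698 to 0.716) in AGO3 and 0.257% (0.252 to 0.262) in AGO2. Its log2 ratio of AGO3 over AGO2 was 1.46 (1.42 to 1.5), a 2.75-fold difference (2.68 to 2.82). The whole interval lay beyond the 2-fold difference used here to call a precursor apart.

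The precursor mir-221 had 6782 counts in AGO3 and 4309 counts in AGO2. Its share was 0.222% (0.217 to 0.227) of AGO3 and 0.124% (0.120 to 0.127) of AGO2 counts. The log2 ratio was 0.84 (0.79 to 0.90), a 1.8-fold difference (1.73 to 1.87), so that mir-221 was higher in AGO3 but not by 2-fold. The call depends on the scaling, since mir-221 reached a log2 ratio of 1.17 when counts were taken per read of each library, mapped or not. Every precursor is shifted by 0.33 under that scaling, which puts 26.0% of all precursors compared at least 2-fold on the AGO3 side, and the proportion of reads counted on precursors was itself higher in AGO3.

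Together the pair took 0.929% (0.918 to 0.940) of the AGO3 counts and 0.381% (0.374 to 0.387) of the AGO2 counts, a log2 ratio of 1.29 (1.26 to 1.32). Ordered by level, mir-222 in AGO3 came first at 7070.4 CPM (6977 to 7165), followed by mir-222 in AGO2 at 2570.3 CPM (2517 to 2624). Next was mir-221 in AGO3 at 2219.7 CPM (2167 to 2273), and mir-221 in AGO2 was last at 1236 CPM (1200 to 1274). Counting intervals are narrow at such counts for any precursor, and with 1 library per protein this order has no replicate check. By level mir-222 ranked 38 in AGO3 and 74 in AGO2, and mir-221 ranked 87 in AGO3 and 102 in AGO2.

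**Figure D1:**
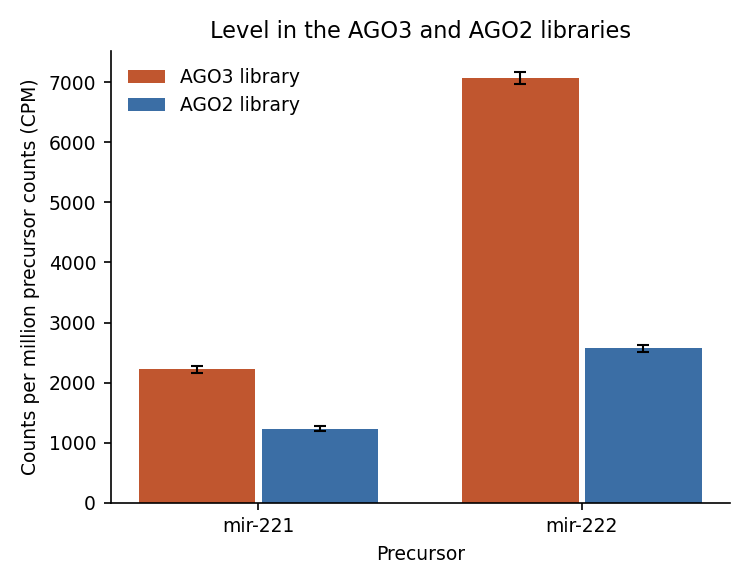
Level of each precursor in CPM (y axis), with the AGO3 library left of the AGO2 library and bars of 1 library each; error bars are exact 95% intervals for counting error. For mir-222 the AGO3 bar stands at 7070.4 CPM beside 2570.3 CPM in AGO2, a wider gap than that of mir-221.

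The pair was then set against all precursors. A minimum of 100 counts, summed over the libraries, left 411 of them; 65 of these (15.8%) stood 2-fold or more on the AGO3 side, as did 1 of the pair. Another 36 (8.76%) were at least 2-fold lower in AGO3, so that 24.6% were apart in either direction. The split between the sides depends on the scaling, with 61 higher and 44 lower under median-of-ratios scaling and 56 higher and 52 lower under TMM scaling (trimmed mean of M-values). A ratio above 1, which both members had, was found for 53.3% of all precursors. The background was similar among deeper precursors. Of the 99 with at least 0.5 times the mean total count of the pair, 12.1% stood 2-fold or more on the AGO3 side and 48.5% had a ratio above 1.

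The median log2 ratio of the 411 precursors was 0.08, with quartiles at −0.52 and 0.70 and an SD of 1.02. Ranked from the highest ratio, mir-222 was at 39 and mir-221 at 82 of 411. Directly above mir-222 stood mir-874 at 1.5 (1.32 to 1.68) and directly below it mir-129-1 at 1.45 (1.33 to 1.57), one copy of the neuronal miR-129. Directly above mir-221 stood mir-18b at 0.85 (0.60 to 1.10) and below it mir-5095 at 0.84 (0.61 to 1.08). The intervals of all 4 of these precursors included the ratio of the member beside them, which follows from their being picked by adjacent rank.

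**Figure D2:**
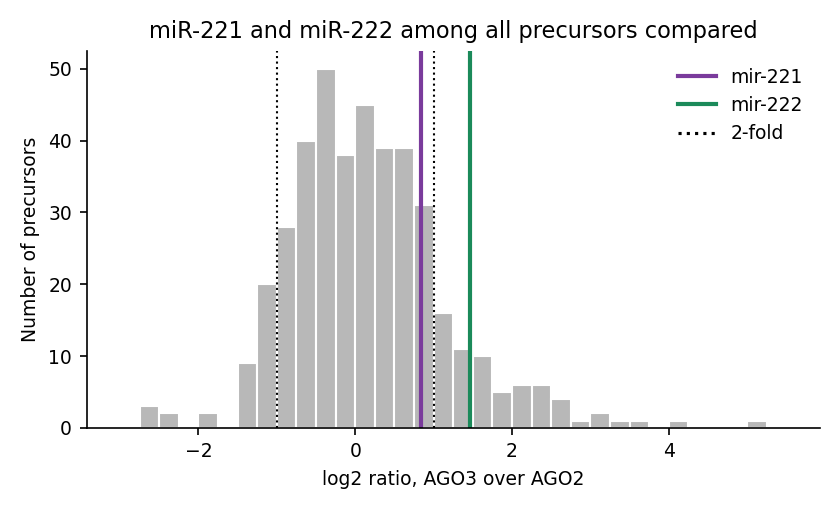
Number of precursors (y axis) by log2 ratio of AGO3 over AGO2 (x axis) for the 411 precursors with at least 100 counts; coloured lines mark mir-221 at 0.84 and mir-222 at 1.46, and dotted lines mark 2-fold. The line of mir-222 lies beyond the right dotted line and that of mir-221 short of it.

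The balance within the pair differed between the libraries. In AGO3 there were 3.19 (3.10 to 3.27) mir-222 counts for each mir-221 count, and in AGO2 there were 2.08 (2.0 to 2.16). In other words mir-222 made up 76.1% (75.6 to 76.6) of the counts of the pair in AGO3 and 67.5% (66.7 to 68.3) in AGO2. The odds of a count being mir-222 were 1.53 times as high in AGO3 as in AGO2 (conditional exact interval 1.46 to 1.60), which is a difference of 0.62 (0.55 to 0.68) between the log2 ratios. This quantity does not depend on how the libraries are scaled. The adapter also differs between the libraries, so for this quantity too protein and adapter cannot be told apart. Each count covers both arms of a hairpin, so the tables do not show which arm differs.

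Neighbouring hairpins elsewhere often differed as much. On 1 strand, 56 other pairs of adjacent precursors had at least 100 counts each and stacks at most 10 kb apart. In 27 of them the log2 ratios differed by more than those of the pair and in 29 by less, with a median difference of 0.54 and a range of 0.05 to 2.56. Nearest in difference were mir-192 at 0.36 with mir-194-2 at −0.28, mir-425 at 0.95 with mir-191 at 0.40, and mir-98 at −0.85 with let-7f-2 at −0.33. Of these, mir-192 and mir-194-2 are best known from kidney and gut. Both mir-194-2 and let-7f-2 have a copy on another chromosome, so their counts may be shared.

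The other pairs were also counted by sign and by height, with the cutoff for height taken from mir-221 itself. In 34 of the 56 other pairs both log2 ratios had the same sign. Singly, 53.3% of all precursors compared had a ratio above 1, and the sign of a ratio can change with the scaling. In 3 of the 56 both ratios were at or above that of mir-221. Those pairs were mir-940 (1.21) with mir-4717 (3.11), mir-532 (1.02) with mir-188 (1.25), and mir-20b (0.89) with mir-18b (0.85). Taken singly, 19.7% of all precursors compared lay above mir-221. No share was computed for pairs of precursors that are not neighbours. Neither count is thus read as a trait of neighbours or of mir-221 and mir-222. Adjacent pairs can share a precursor and some precursors have copies, so these pairs are not independent.

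**Figure D3:**
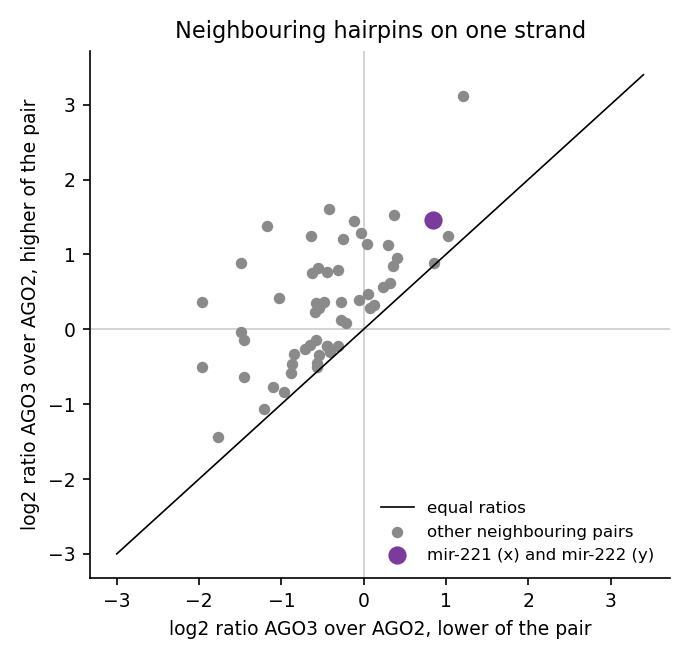
Log2 ratio of AGO3 over AGO2 for the lower (x axis) and the higher (y axis) precursor of each adjacent pair, with 56 other pairs in grey and mir-221 with mir-222 as the large point. The large point lies at 0.84 and 1.46, in the upper right with few others, and about as far from the line of equal ratios as the median pair.

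The precursors closest to the pair in level were found by the distance of log2(CPM + 1) over the 2 libraries. With 2 values per precursor this is a coarse measure. Nearest to mir-221 were mir-1260a at 2398 CPM in AGO3 and 1127 CPM in AGO2, mir-140 at 2177 CPM in AGO3 and 1474 CPM in AGO2, and mir-940 at 2870.0 CPM in AGO3 and 1238 CPM in AGO2. Of these, mir-1260a is an entry that resembles tRNA sequence, and mir-140 is best known from cartilage. Nearest to mir-222 were mir-455 at 5817 CPM in AGO3 and 3351 CPM in AGO2, mir-744 at 5984 CPM in AGO3 and 3498 CPM in AGO2, and mir-196a-1 at 5106 CPM in AGO3 and 2208 CPM in AGO2. The last has a copy, mir-196a-2, so its counts may be shared. The distances were 0.17 to 0.37 for mir-221 and 0.47 to 0.52 for mir-222, so mir-222 had no neighbour as close as those of mir-221.

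Other miRNAs known to repress inhibitors of cyclin-dependent kinases stood on either side of equal shares. The list held 7 relatives and neighbours of miR-17 and miR-106b, which act on CDKN1A (p21) or, for miR-25, on CDKN1C. All 7 passed the count minimum. None was 2-fold apart, beside 24.6% of all precursors compared. Of the 7, 3 were higher in AGO3 and 4 lower, beside 53.3% of all precursors higher. The median log2 ratio of the list was −0.22 beside 0.08 for all precursors. Its 4 most abundant members were mir-106b at −0.44 (−0.44 to −0.43), mir-20a at −0.50 (−0.52 to −0.49), mir-17 at 0.76 (0.74 to 0.78) and mir-93 at −0.22 (−0.24 to −0.20). Of the 7, 1 lay above mir-221, mir-20b at 0.89 (0.61 to 1.19), beside 19.7% of all precursors compared. None lay above mir-222, beside 9.25% of all precursors compared. The list took 15.8% of AGO3 and 19.2% of AGO2 counts. With counts per read of each library mir-93 turned to the AGO3 side, 2 of the 7 were at least 2-fold higher and the median became 0.11, beside 26.0% and a median of 0.41 for all precursors.

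Among other miRNAs known from blood vessels, 9 of 11 passed the count minimum. Their median log2 ratio was 0.36, beside 0.08 for all precursors compared. None was 2-fold apart, beside 24.6% of all precursors compared. The most abundant was the endothelial mir-126 at 0.70 (0.69 to 0.71), followed by mir-27a at 0.23 (0.21 to 0.24), mir-92a-1 at 0.36 (0.34 to 0.38) and mir-21 at −0.43 (−0.47 to −0.38). In all, 6 were higher in AGO3 and 3 lower, beside 53.3% of all precursors higher. Of the 9, 1 lay above mir-221, the hypoxia-induced mir-210 at 0.89 (0.70 to 1.10), beside 19.7% of all precursors compared. Of the members below the minimum, mir-155 had no count in either library and mir-145 had 43 AGO3 and 16 AGO2 counts. With counts per read of each library mir-130a turned to the AGO3 side and 2 of the 9 were at least 2-fold higher, beside the same 26.0% of all precursors. The precursors mir-92a-1 and mir-24-2 of this list have copies elsewhere, so their counts may be shared.

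Other precursors of the X chromosome lay on both sides. Stacks placed 57 other precursors on it, and 35 of these passed the count minimum, with 4 at least 2-fold higher in AGO3, 4 at least 2-fold lower and the others between, beside 15.8% and 8.76% of all precursors. Under TMM scaling 3 of the 35 were higher and 7 lower by that measure, beside 13.6% and 12.7% of all precursors. Per read of each library 6 were higher and 3 lower, beside 26.0% and 3.89% of all precursors. The median log2 ratio of the 35 was −0.22, beside 0.08 for all precursors, and their range was −2.48 to 1.61. The 4 most abundant were mir-374a at −1.03, mir-424 at −0.31, mir-92a-2 at −0.03 and mir-652 at 0.12. Among the 35, mir-92a-2, mir-19b-2 and let-7f-2 have copies elsewhere, so their counts may be shared. Of the 35, 1 lay above mir-222, mir-676 at 1.61 (1.47 to 1.75), beside 9.25% of all precursors compared. In all, 6 of the 35 lay above mir-221, beside 19.7% of all precursors compared. With counts per read of each library the median was 0.10, beside 0.41 for all precursors. With TMM scaling it was −0.38, beside −0.08, while the pair stayed on the AGO3 side under both. Precursors that no stack names were not placed. The next precursor placed by a stack at lower coordinates, mir-23c, was 25570.4 kb away. It had 2 AGO3 and 4 AGO2 counts, too few for a ratio. At higher coordinates the next so placed was mir-532, 4161 kb away, at a log2 ratio of 1.02 (0.95 to 1.08).

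The pooled stacks gave the position of reads, without separating the libraries they pool. In hg19 the stack of mir-221 covered chrX:45605604-45605694 on the minus strand, 91 bases with 773095 reads. The stack of mir-222 covered chrX:45606434-45606505 on the same strand, 72 bases with 783864 reads. The annotation in the stack list puts each in the exon of its own gene, MIR221 or MIR222, and each stack names 1 precursor only. The stack of mir-222 was longer than the 59 bases that its 5p and 3p miRNAs span in the hairpin, so its reads reach past the mature ends.

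The surroundings of the hairpins were almost empty. Between the stacks lay 739 bases with a single stack of 1 read, 18 bases long. Within 20000 bases on either side of the pair there were 7 other stacks of 1 read each, that one included, all on the minus strand. No stack on the opposite strand overlapped either hairpin.

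The shape of the stacks lay within the range of others of like depth. There were 24 stacks, the pair included, that name a single precursor and hold between 0.5 times the reads of mir-221 and 2 times those of mir-222. Their lengths ran from 47 to 111 bases with a median of 88.5, so that 8 were longer than that of mir-221 and 19 longer than that of mir-222. The authors' total entropy score, which the stack list does not define further, was 1.98 for mir-221 and 1.38 for mir-222, in a range of 1.05 to 2.43. The stack of mir-222 was the lower of the pair in length and in score. The field named edits gave 0.168 per read for mir-221 and 0.154 for mir-222, in a range of 0.127 to 0.243; 3 of the 24 were above mir-221 and 16 above mir-222.

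The pair took a larger part of the pooled stacks than of either library, and in other proportions. Over 326 precursors with a stack of their own and at least 100 counts, mir-221 held 1.54% of the stack reads, beside 0.251% of the AGO3 and 0.137% of the AGO2 counts. That share was 6.12 times the AGO3 share and 11.2 times the AGO2 share, and 15 precursors had a larger excess over AGO3 and 9 a larger excess over AGO2. For mir-222 the stack share was 1.56%, beside 0.800% of AGO3 and 0.284% of AGO2 counts, which is 1.95 times the AGO3 and 5.49 times the AGO2 share. A larger excess over AGO3 was found for 75 precursors and a larger excess over AGO2 for 22. In rank of reads mir-222 was 13 and mir-221 was 14 of the 326 in the stacks, whereas mir-222 was 31 in AGO3 and 62 in AGO2, and mir-221 was 74 in AGO3 and 89 in AGO2.

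The balance of the pair in the stacks was close to even, at 1.01 mir-222 reads per mir-221 read (1.01 to 1.02), below the 3.19 of AGO3 and the 2.08 of AGO2. A pool of these 2 libraries counted alike would lie between their values, which neither the shares nor the balance did. The stack of mir-221 alone held 773095 reads, beside 6782 AGO3 and 4309 AGO2 counts. The stack list thus holds many reads beyond the counts of these libraries, and its shares are not those of their pool. The sources used here do not say which libraries the stack list pools. Stack shares differed widely from library shares in general, with an SD of the log2 quotient of 2.71 against AGO3 and 2.77 against AGO2 over the 326 precursors.

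**Figure D4:**
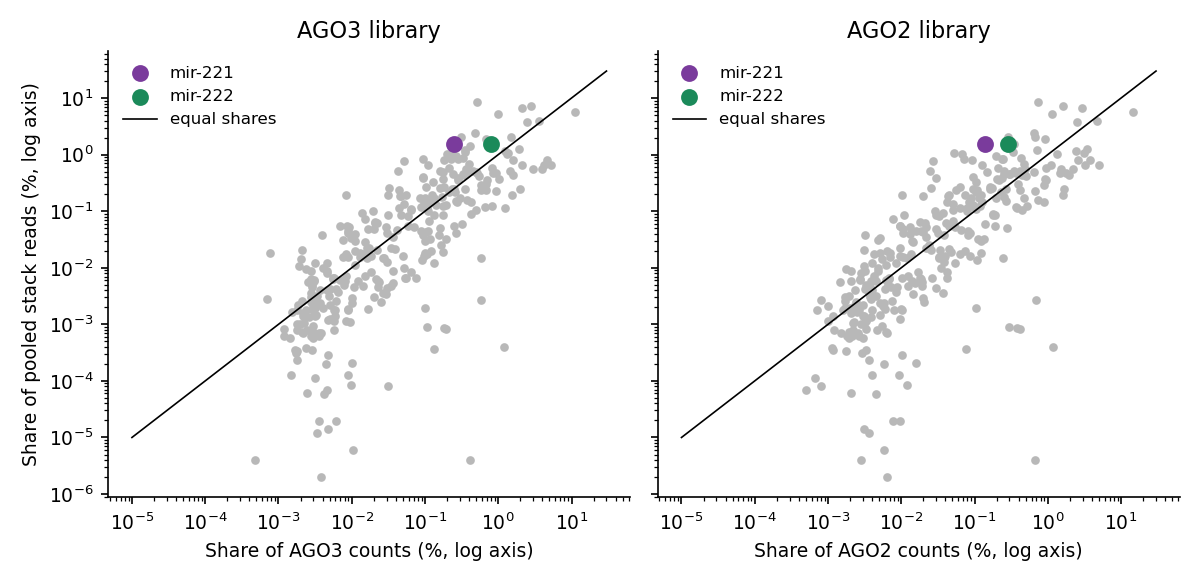
Share of pooled stack reads (y axis, percent, log scale) against share of AGO3 counts (left panel) and of AGO2 counts (right panel, both percent, log scale) for 326 precursors, with the line of equal shares. Both coloured points lie above the line in both panels, mir-221 at a stack share of 1.54% and mir-222 at 1.56%.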

How the data were processed

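Small RNA held by FLAG-tagged AGO3 and AGO2 was sequenced from HEK293 cells, 1 library each. The authors deposited raw read counts per miRNA precursor, whole numbers whose sum is the mapped total, per the file headers. The submitters' processing notes name Bowtie2 2.1.0 and hg19 but not what each was used for; the miRBase release, use of strand and handling of reads with several matches are likewise not given in the sources. A deposited list of read stacks, libraries pooled, gives a count of reads, an entropy score and further fields per stack; the authors' score is used only to describe stacks.

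The log2 ratio compares each precursor's share between libraries; a pseudocount of 0.5, scaled to library size, was added. Comparison needed a total of 100 counts, and 2-fold was called apart. Without molecular identifiers reads may be copies of 1 molecule, and intervals and floors (3 counts) cover counting error alone. Precursors named were the pair, the 3 nearest in level to each, those adjacent in rank or on the X chromosome, up to 4 of each list, and the 3 pairs nearest in difference; mir-20b, mir-210, mir-486, mir-130a, mir-676 and the 3 pairs above mir-221 were named with their values already seen. The members and lists were chosen with earlier results of these data known. The calculation was tested on simulated counts. Sequences are from RefSeq (GRCh38.p14), and no coordinates were converted between builds. Alternatives covered scaling (edgeR 4.0.16 for TMM), minimum, pseudocount and gap. Software was R 4.3.3, matplotlib 3.10.9, biopython 1.88, scipy 1.17.1, pandas 2.3.3, numpy 2.4.6 and Python 3.11.15.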

Additional observations from a re-analysis of the deposited data

How the results depend on the processing

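Both hairpins and their sum stayed higher in AGO3 under every scaling and pseudocount tried. With median-of-ratios scaling the log2 ratios were 0.76 for mir-221, 1.38 for mir-222 and 1.20 for the sum. With TMM scaling, which lowers all log2 ratios by 0.16, they were 0.68, 1.30 and 1.13. Per read of each library, which raises all by 0.33, they were 1.17, 1.79 and 1.61, and mir-221 then passed 2-fold. The number of precursors at least 2-fold apart was 101 of 411, 65 higher and 36 lower, against 56 higher and 52 lower with TMM and 61 higher and 44 lower with median of ratios; it was 436 of 1038 with no minimum, 184 of 638 with a minimum of 20 and 54 of 221 with a minimum of 1000. The difference within the pair kept its value of 0.62 with a pseudocount of 5. With gaps of at most 1 kb or 50 kb, 19 of 43 and 31 of 63 other pairs differed more. No paired analysis was possible because each protein has 1 library. For the same reason the counting intervals leave out any spread between preparations.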
